A study of Rattus norvegicus with 3 samples.

Results

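The genes described here encode the proteins of the mitochondrial ribosome. They are the genes whose single symbol in the platform annotation starts with Mrpl (large subunit) or Mrps (small subunit), which gave 73 of the 14217 genes with 1 symbol, 46 for the large subunit and 27 for the small one. They were measured in rat brainstem on 3 Affymetrix arrays, labelled sham, TBI (traumatic brain injury) and Hand Acu (hand acupuncture), all taken 1 h after modelling. Each array is a group of its own. Tissue of 5 rats was mixed, read here as 1 pool per group, and 6 µg of RNA went into labelling. Rat strain, sex and age, the injury method and the acupuncture points are not given in the sources used here, nor whether the rats given acupuncture had been injured. With 1 array of pooled RNA per group, the differences carry no replicate error and were not tested, and the number of arrays limits the precision.

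Mitochondria translate the few proteins that their own genome encodes, which are core subunits of the respiratory chain and of ATP synthase. They do this on a ribosome of their own. Its RNAs come from mitochondrial DNA, while every protein of it is encoded in the nucleus, made in the cytosol and imported. Many of these proteins belong to families shared with bacterial ribosomes, and others were added during mitochondrial evolution. In the large subunit lie the peptidyl transferase centre, the stalk that binds translation factors and the exit tunnel, and in the small subunit lie the path of the messenger and the decoding centre. Neurons depend strongly on oxidative phosphorylation, and inherited defects of several of these proteins cause mitochondrial disease in people.

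All 73 genes lay above the floor of 7.44 in mean log2 signal, the median of the non-control probe sets, where 65.0% of all named genes did. Signal here is the MAS5 value of a gene's brightest probe set, and the median over the 73 genes was 10.03 in sham, 10.06 in TBI and 10.04 in hand acupuncture. The corresponding medians over the 9241 genes above the floor were 9.54, 9.52 and 9.52. Probe sets differ in how strongly they bind, so a brighter gene is not thereby a more abundant one, and the order below describes signal alone. Large subunit genes had a median of 10.01 over the 3 arrays and small subunit genes one of 10.07.

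The brightest was Mrpl17, a large subunit protein of a bacterial family that lies near the exit tunnel, at 11.72 in sham, 11.77 in TBI and 11.78 in hand acupuncture. These 3 values lie within 0.06 of each other. Mrpl41, a protein without a bacterial counterpart, had 11.54, 11.68 and 11.74 in the same order, lowest on the sham array. Next came Mrps33 of the small subunit, with 11.29, 11.50 and 11.32, and Mrpl33, Mrpl20 and Mrpl43, between 11.08 and 11.36 on each array. At the other end lay Mrpl38 of the central protuberance, with 8.12, 8.18 and 8.16. Mrpl14, whose bacterial relative lies at the interface of the subunits, had 8.41 in both sham and TBI and 8.02 in hand acupuncture. Mrps27, which carries RNA-binding repeats, had 8.49, 8.42 and 8.59. The remaining dim members were Mrpl40, Mrpl21 and Mrps11, between 8.46 and 9.28 on each array. Mean signal ran from 8.15 to 11.76 over the members, far more than any member differed between arrays.

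**Figure D1:**
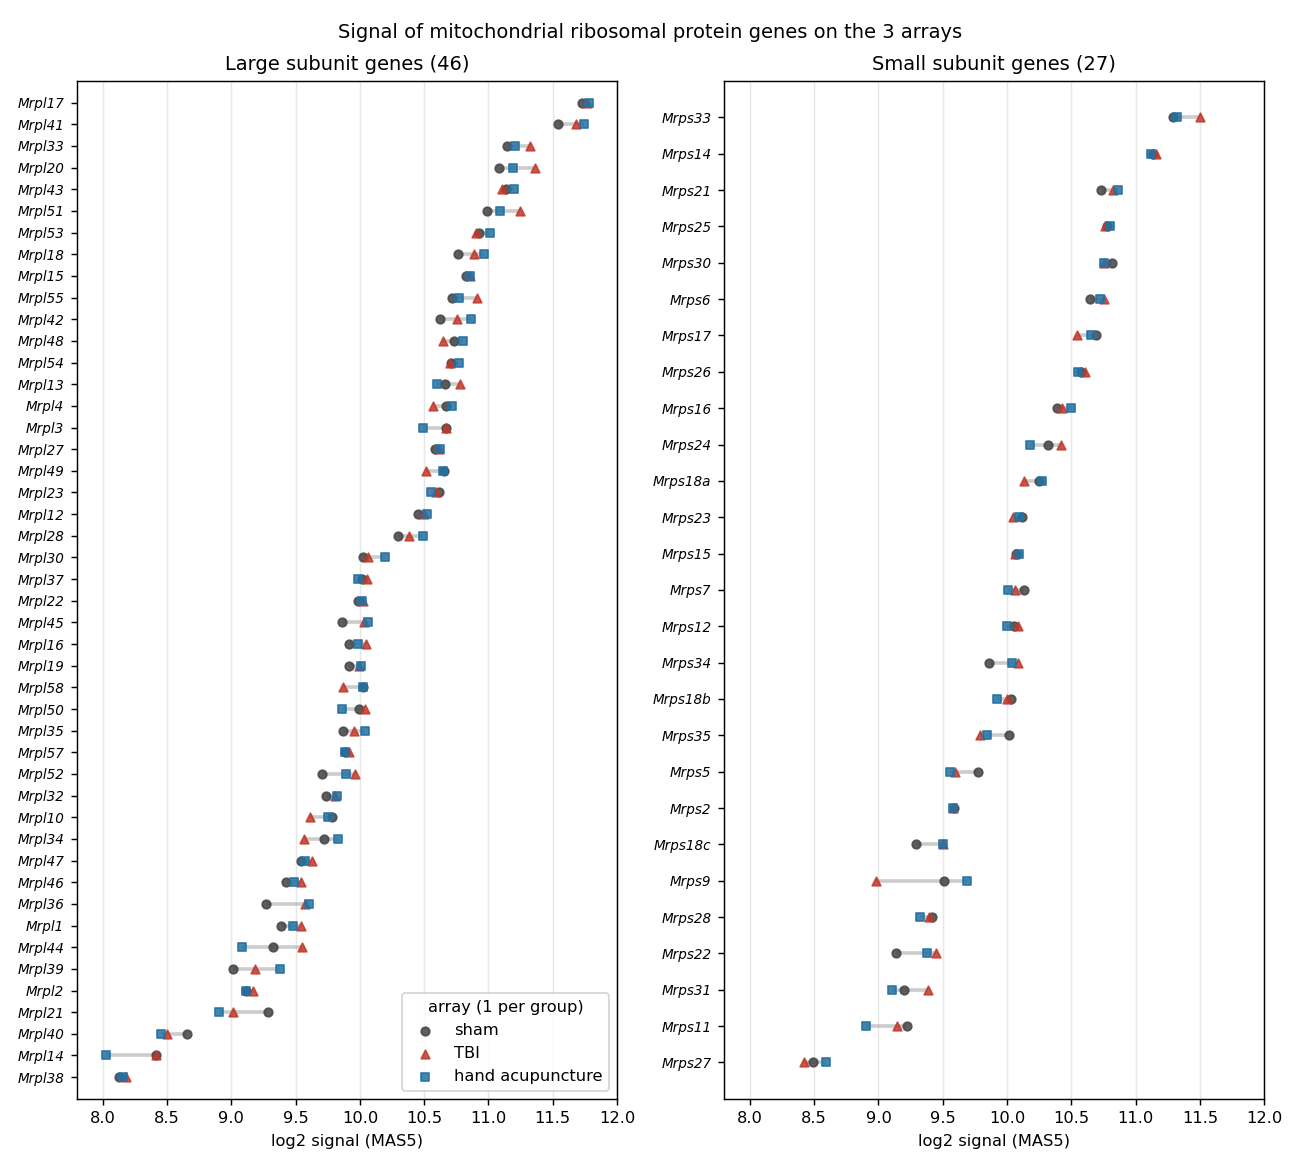
Log2 MAS5 signal (x axis) of the 46 large subunit genes (left) and the 27 small subunit genes (right) in sham, TBI and hand acupuncture, 1 point per array, with a grey line from the lowest to the highest array. Most lines are short beside the spread between genes, and Mrps9 has the longest, from 8.98 in TBI to 9.69 in hand acupuncture.

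Signals differed little from array to array. The gap between a gene's highest and lowest array had a median of 0.15 over the 73 genes, against 0.17 over the 7094 genes in the same range of signal. It was at most 0.20 in 50 genes (68.5%, against 58.4% of the genes in that range) and at most 0.50 in 72. Those other genes were not matched to the members in signal. From 8 to 9 in mean log2 signal, the median gap was 0.19 over 4 members and 0.24 over all genes. It was 0.19 and 0.18 from 9 to 10, 0.11 and 0.14 from 10 to 11, and 0.19 and 0.12 from 11 to 12. So the members were not steadier at every level of signal. Mrps2, a small subunit protein at the side where the messenger leaves, had 9.59, 9.58 and 9.58 in sham, TBI and hand acupuncture. Mrpl15 of the large subunit core had 10.83, 10.85 and 10.86. Only Mrps9 exceeded 0.50.

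Genes with several probe sets give a check on such small gaps, because other probes read the same RNA. Of the 73 genes, 55 had 1 probe set and 18 had more, and 10 of the latter had 12 further probe sets above the floor. The sign of the brightest probe set was shared by 6 of those 12 for TBI minus sham, by 6 for hand acupuncture minus TBI and by 5 for hand acupuncture minus sham. The median gap between the log2 difference of a further probe set and that of the brightest was 0.18, 0.20 and 0.11 in the same order. The median size of the differences of all 73 genes was 0.089, 0.068 and 0.087, smaller than that gap in each comparison. The gap comes from only 10 genes and from further probe sets that are dimmer by definition, so it does not measure the error of the 73 differences. Over all 2073 genes with further probe sets above the floor, the gap had a median of 0.15, 0.14 and 0.16. The sign was shared by 56.6%, 53.5% and 55.4% of their 2684 further probe sets, so low agreement was not particular to the members.

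The pair of probe sets of Mrps14, a small subunit protein of a bacterial family, gave nearly the same picture. The brighter read 11.13, 11.16 and 11.12 in sham, TBI and hand acupuncture and the other 10.82, 10.85 and 10.83. Mrpl40, a protein of the central protuberance, was also alike in both, at -0.15 and -0.13 for TBI minus sham. Mrpl52 was not. Its brighter probe set read 9.71, 9.96 and 9.89, lowest on the sham array, and its other one 8.24, 7.29 and 7.87, highest there. Of the 4 probe sets of Mrpl51, a protein found only in mitochondria, the brightest differed by 0.26 for TBI minus sham and the others by -0.015, 0.35 and 0.092.

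**Figure D2:**
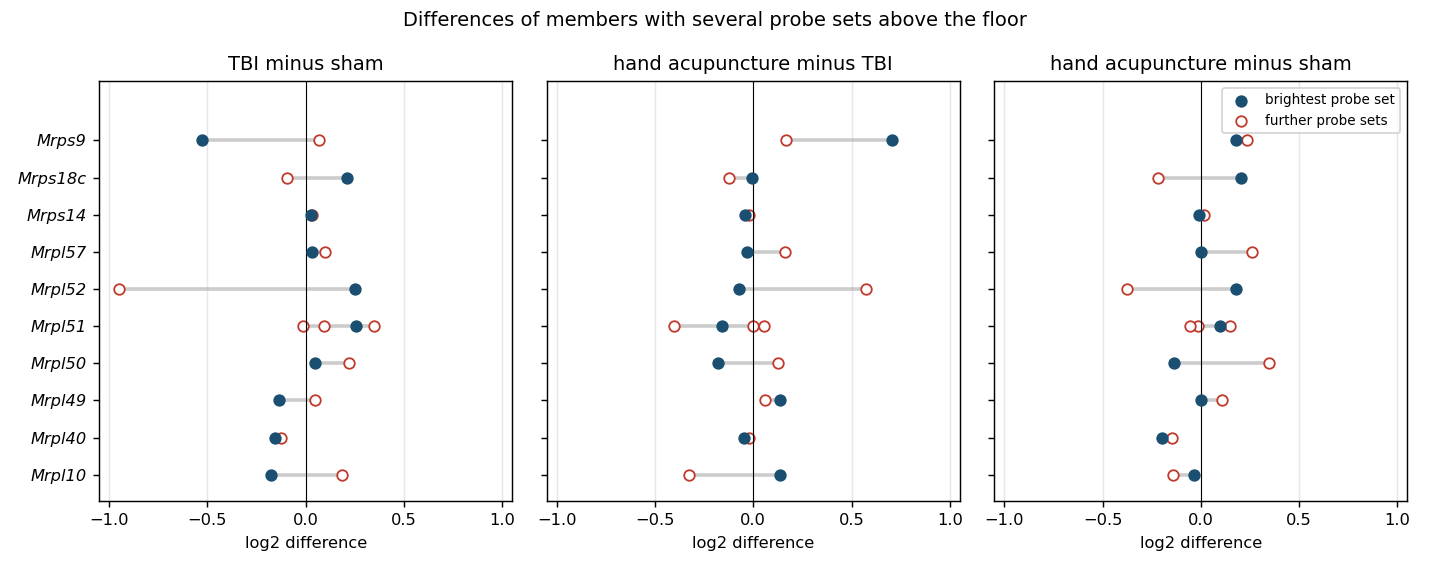
Log2 difference (x axis) of the brightest probe set (filled) and of the further probe sets above the floor (open) for the 10 members that have them, 1 panel per comparison of 2 arrays. The probe sets of Mrps14 and Mrpl40 lie close together, and those of Mrpl52 and Mrps9 lie far apart for TBI minus sham.

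TBI was set against sham to see how the injured brainstem differs 1 h after modelling. Mitochondrial ribosomal protein genes were slightly higher on the TBI array in median. The 2 subunits are given apart below, and the difference between them was not tested. The median log2 difference of all 73 was 0.037, with 46 higher and 27 lower, where all 9241 genes above the floor had a median of 0.0043 and 51.0% higher. Of the 46 large subunit genes, 34 were higher (median 0.050), and of the 27 small subunit genes 12 were (median -0.012). With the mean of all probe sets the small subunit median was 0.0068. None of the 73 was 1.5-fold apart. Over all genes, 0.866% were past that fold on the higher side and 0.682% on the lower side. No error can be given for these medians.

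The genes highest on the TBI array relative to sham were Mrps22 and Mrpl36. Mrps22, a small subunit protein without a bacterial counterpart that is mutated in some mitochondrial disease, read 9.14 in sham, 9.44 in TBI and 9.38 in hand acupuncture, a difference of 0.31 for TBI minus sham (1.24-fold). Mrpl36, of a bacterial family of short zinc-binding proteins, read 9.27, 9.57 and 9.61, a difference of 0.30. In both genes the sham array was the low one and the other arrays were close to each other. Mrpl20, a large subunit protein of a bacterial family, read 11.08, 11.36 and 11.19 and differed by 0.28. Mrpl51, Mrpl52, Mrps34, Mrpl44 and Mrps18c followed, between 0.26 and 0.21. For Mrpl51, Mrpl52 and Mrps18c a further probe set had the opposite sign.

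Lowest on the TBI array was Mrps9, whose bacterial relative sits in the head of the small subunit and reaches toward the transfer RNA. Its brighter probe set read 9.51 in sham, 8.98 in TBI and 9.69 in hand acupuncture, which is -0.53 for TBI minus sham (1.44-fold lower). Its other probe set, nearly as bright, read 8.99, 9.05 and 9.22, which is 0.066. The low value on the TBI array was thus seen in 1 of its 2 probe sets. Mrpl21, a large subunit protein of a bacterial family, read 9.28, 9.01 and 8.90, a difference of -0.27. Mrps35, Mrps5, Mrpl10, Mrpl34, Mrpl40 and Mrpl58 differed by between -0.22 and -0.15. Mrpl58 derives from a release factor and frees peptides from stalled ribosomes. Mrpl10 holds the stalk to the ribosome, and its other probe set had the opposite sign (0.19).

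**Figure D3:**
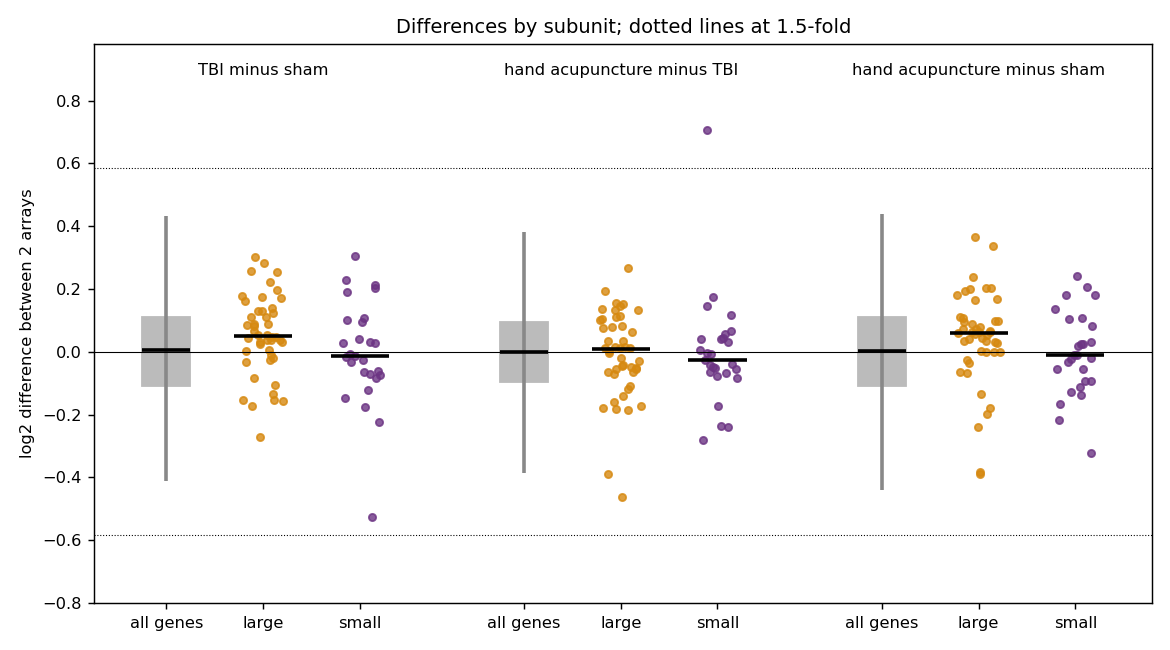
Log2 differences (y axis) of the 46 large and 27 small subunit genes for each pair of arrays (points, 1 per gene, with a bar at the median), beside all 9241 genes above the floor (box for the middle 50%, line for the middle 95%, bar at the median). The subunit medians run from -0.027 to 0.060, and 1 point, Mrps9 for hand acupuncture minus TBI, lies past the dotted line at 1.5-fold.

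Other signals moved with this comparison. The 18 probe sets for spiked hybridisation controls had a median of 0.23 for TBI minus sham, and the 24 for transcripts spiked in before labelling had 0.33, while the scaled median signal of the arrays was 174.7, 174.1 and 174.2. The beta-actin 3' to 5' signal ratio was 5.58, 6.37 and 6.69 in sham, TBI and hand acupuncture. Of markers fixed for other tissue, all 4 cerebellum markers were lower on the TBI array than on the sham array (median -0.58), with a summed signal of 11209, 7436 and 6779 on the 3 arrays. All 3 endothelium markers were lower too (median -0.19, summed signal 2845, 2200 and 2144), and so were both muscle markers above the floor (median -0.22). Both red cell markers measured were higher (median 0.33, summed signal 11480, 14424 and 10944). Neuron, astrocyte, oligodendrocyte, microglia, choroid plexus and forebrain markers had medians between -0.034 and 0.091. The part of these in the members' differences was not tested. In bulk tissue, fewer cells of a type and less RNA per cell cannot be told apart. As to the label of the tissue, Th, Chat and Slc6a4, markers of brainstem catecholamine, cholinergic and serotonin neurons, lay above the floor on each array, while Dbh and the glycinergic markers Slc6a5 and Glra1 lay below it. Of the hindbrain genes, Hoxa5 read 7.35, 8.57 and 8.34 and Hoxb3 7.40, 7.58 and 7.53 in sham, TBI and hand acupuncture, so both were below the floor in sham. Slc6a4 and Chat were also lowest in sham, at 8.16, 8.64 and 8.50 and at 7.71, 7.96 and 7.99. Th was lowest in hand acupuncture, at 9.21, 9.38 and 9.14. For TBI minus sham the 3 monoamine and cholinergic markers above the floor had a median of 0.25 and the 2 hindbrain genes one of 0.70. Their part in the members' differences was not tested either.

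The next comparison set hand acupuncture against TBI. Since it is not stated whether the rats given acupuncture were injured, the arrays may differ in injury as well as in acupuncture. As a group the genes were level between these arrays. The median log2 difference was -0.0055, with 35 higher and 38 lower, against -0.0024 and 49.3% higher over all genes. Large subunit genes had a median of 0.0071 (24 of 46 higher) and small subunit genes one of -0.027 (11 of 27 higher). Past 1.5-fold on the higher side lay 1 gene, against 0.617% of all genes, and on the lower side 0, against 0.595%.

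That gene was Mrps9, at 8.98 in TBI and 9.69 in hand acupuncture, a log2 difference of 0.71 (1.63-fold). Its other probe set was also higher there, by 0.17, and with the mean of both the difference was 0.44, below 1.5-fold. Mrpl34, a short large subunit protein of a bacterial family, differed by 0.27, with 9.72, 9.56 and 9.83 in sham, TBI and hand acupuncture. Mrpl34, which has 1 probe set, was lowest in TBI, whereas for Mrps9 this was so in the brighter probe set and not in the other. Mrpl39, Mrps27, Mrpl48, Mrpl58, Mrpl4 and Mrps18a differed by between 0.19 and 0.14.

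In the other direction, Mrpl44 had the largest difference. This protein near the exit tunnel has the fold of an RNase III enzyme and is mutated in a heart muscle disease of infancy. It read 9.32 in sham, 9.55 in TBI and 9.08 in hand acupuncture, which is -0.46 for hand acupuncture minus TBI (1.38-fold lower). Mrpl14 read 8.41, 8.41 and 8.02 and differed by -0.39, so that only the hand acupuncture array was low. Mrps31 (-0.28), Mrps11 (-0.24) and Mrps24 (-0.24) of the small subunit came next, then Mrpl3, Mrpl50 and Mrpl13 at -0.19 to -0.18. Mrps24 belongs to the family that lines the entry of the messenger. The other probe set of Mrpl50 had the opposite sign (0.12).

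Between these arrays the spiked hybridisation controls had a median of -0.24 and those spiked in before labelling -0.62. The 2 muscle markers above the floor had a median of 0.44, with a summed signal over all 3 of 7659 in TBI and 12026 in hand acupuncture. Medians were lower for red cell (-0.33), microglia (-0.27), choroid plexus (-0.26) and cerebellum markers (-0.18). Their part in the members' differences was not tested.

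Hand acupuncture against sham shares an array with each comparison above, so its values are not independent of them. The median log2 difference of the 73 genes was 0.035, with 47 higher, against 0.0037 and 51.0% higher over all genes. Large subunit genes had a median of 0.060 (35 of 46 higher) and small subunit genes one of -0.012 (12 of 27 higher). No gene was 1.5-fold apart, against 0.996% of all genes on the higher side and 0.898% on the lower. The cerebellum markers had a median of -0.73 here, and their part in the result was not tested. Mrpl39, a large subunit protein near the exit tunnel, read 9.01 on the sham array and 9.38 on the hand acupuncture array (0.37), with the TBI array between them at 9.19. Mrpl36 (0.34), Mrps22 (0.24), Mrpl42 (0.24) and Mrps18c (0.21) followed, and the other probe set of Mrps18c above the floor had the opposite sign (-0.22). The lowest were Mrpl14 (-0.39), Mrpl21 (-0.38), Mrps11 (-0.32), Mrpl44 (-0.24) and Mrps5 (-0.22).

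Counted by array rather than by pair, the sham array was the lowest of the 3 for 35 of the 73 genes (47.9%), against 34.7% of the 7094 genes in the same range of signal. It was the highest for 15 (20.5%, against 35.8%). In the large subunit, sham was lowest for 28 of 46 genes and highest for 5. In the small subunit it was lowest for 7 of 27 and highest for 10. All of these counts rest on the same sham array.

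**Figure D4:**
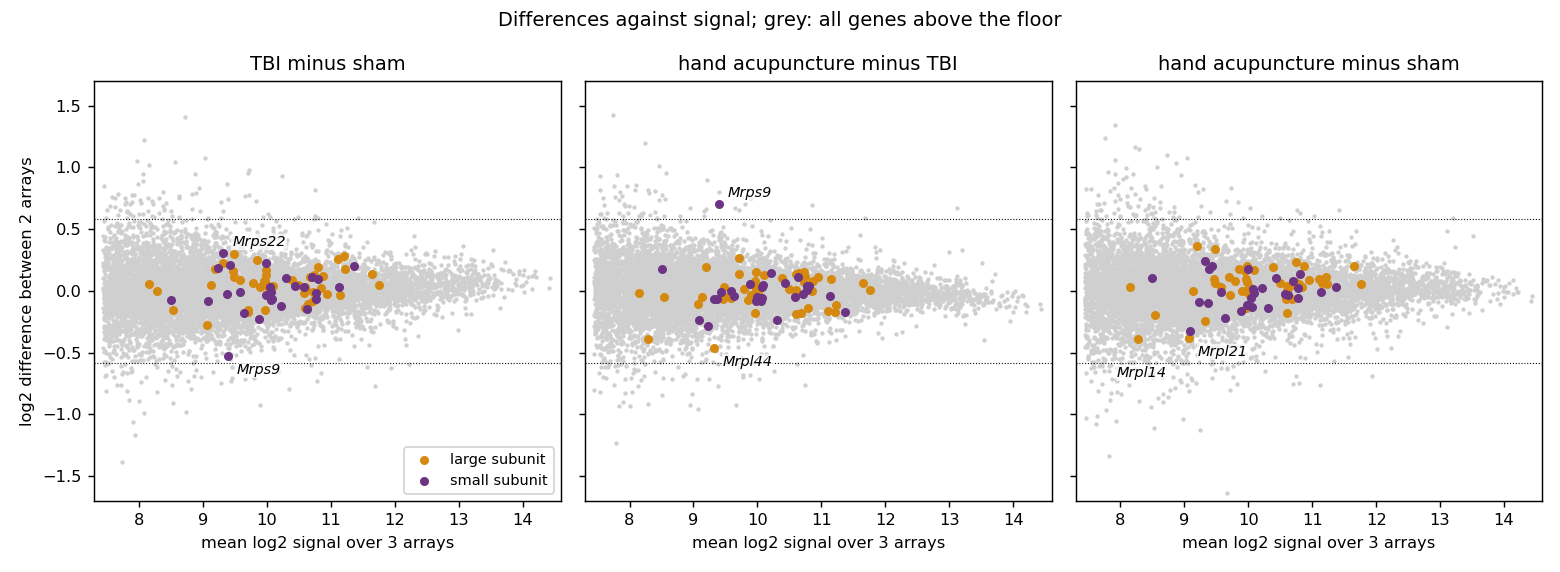
Log2 difference (y axis) against mean log2 signal over the 3 arrays (x axis) for all 9241 genes above the floor (grey) and the 46 large and 27 small subunit genes, 1 panel per comparison, with dotted lines at 1.5-fold. The spread narrows as signal grows, and most members lie inside the cloud of other genes, with Mrps9 at its edge; the 2 members farthest from zero in each panel are named.

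The spread of the differences depended on signal. Over all genes with mean log2 signal from 9 to 10, the SD of TBI minus sham was 0.19, and it was also 0.19 over the 30 members there. From 10 to 11 it was 0.16 over all genes and 0.085 over 31 members. The median of TBI minus sham was -0.0086 over all genes from 8 to 9 and -0.035 over the 4 members there. It was -0.015 and 0.073 from 9 to 10, 0.0063 and 0.029 from 10 to 11, and 0.016 and 0.16 from 11 to 12, where 8 members lie. Those 8 ran from -0.034 for Mrpl43 to 0.28 for Mrpl20.

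The genes were also grouped by place in the ribosome. Of the 7 exit tunnel genes, 6 were higher on the TBI array than on the sham array (median 0.088), with Mrpl44 at 0.22, Mrpl39 at 0.17 and Mrpl45, which helps to hold the ribosome at the inner membrane, at 0.17. In the whole large subunit 34 of 46 were higher, and 51.0% of all genes above the floor. The 4 stalk genes had a median of -0.018 for that comparison and were all higher for hand acupuncture minus TBI (median 0.093), with Mrpl10 at 0.14 and Mrpl53 at 0.11. For Mrpl10 this rests on the brighter probe set, since the other differed by -0.33 and the mean of both by -0.095. Mrpl12, the stalk protein that contacts elongation factors, read 10.45, 10.50 and 10.52 in sham, TBI and hand acupuncture. The 5 genes of the messenger path and decoding centre were all lower in hand acupuncture than in TBI, with a median of -0.068 and a range from -0.24 for Mrps24 to -0.0027 for Mrps2. For that comparison 24 of 46 large subunit genes, 11 of 27 small subunit genes and 49.3% of all genes above the floor were higher. The regions hold few genes, and their counts were not tested. Mrps12, of the family at the decoding centre, differed by -0.085. The 5 genes of the central protuberance went both ways for TBI minus sham, from -0.15 for Mrpl40 to 0.12 for Mrpl18.

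Proteins of bacterial families and those added in mitochondria did not differ in median for TBI minus sham, at 0.037 over 44 genes and 0.037 over 29. For hand acupuncture minus TBI the medians were -0.0063 and 0.0058. The higher count in the large subunit was present in both classes, with 22 of 27 genes of bacterial families higher for TBI minus sham and 12 of 19 of the others. In the small subunit 7 of 17 and 5 of 10 were higher. Mrps18a and Mrps30 carry small subunit symbols but lie in the large subunit of the mammalian ribosome. Counted there, large subunit genes had 34 of 48 higher for TBI minus sham and a median of 0.047, and small subunit genes 12 of 25 and -0.0068.

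Genes that act with the mitochondrial ribosome were described in the same way. For hand acupuncture minus TBI the median size of the difference was 0.15 for translation factors and 0.12 for assembly factors, against 0.068 for the 73 genes. For TBI minus sham it was 0.087 and 0.051, against 0.089. The 6 further ribosome proteins with other symbols were all above the floor. For TBI minus sham 5 of them were higher (median 0.041), against 51.0% of all genes above the floor. Dap3, a GTP-binding protein of the small subunit also known for a part in cell death, read 9.55, 9.37 and 9.60 in sham, TBI and hand acupuncture. Gadd45gip1, a large subunit protein, read 10.54, 10.75 and 10.65. For the 21 assembly factors above the floor, of 28 measured, the median was 0.0043 for TBI minus sham and -0.037 for hand acupuncture minus TBI. Fastkd2, an RNA-binding factor of large subunit assembly, was 0.50 higher for the latter, Spg7, a protease subunit of the inner membrane, differed by -0.40, and Nsun4, a methyltransferase of the ribosomal RNA, by -0.32. The 11 translation factors above the floor, of 13 measured, had medians of -0.025 and 0.049. Among them Mrrf, which recycles ribosomes, differed by -0.56 and Mtrfr, which rescues stalled ones, by 0.51 for hand acupuncture minus TBI. Both were dim, at 7.86, 8.05 and 7.48 for Mrrf and 7.48, 7.18 and 7.69 for Mtrfr. Gfm1, an elongation factor, differed by 0.32. In none of these lists was a gene 1.5-fold apart.

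The 12 mitochondrial aminoacyl-tRNA synthetase and tRNA amidation genes above the floor, of 18 measured, had a median of -0.073 for TBI minus sham and of -0.044 for hand acupuncture minus TBI. Qrsl1, a subunit of the amidation enzyme, was 0.52 higher on the TBI array than on the sham array and Nars2, the asparaginyl enzyme, differed by -0.35. Nuclear genes of oxidative phosphorylation, whose partners the mitochondrial ribosome makes, were higher for TBI minus sham in 58 of 73 genes (median 0.066) and had a median of -0.025 for hand acupuncture minus TBI. Cytosolic ribosomal protein genes had medians of 0.073 (31 of 41 higher, against 51.0% of all genes above the floor) and -0.063 (4 of 41 higher, against 49.3%). For hand acupuncture minus TBI the mitochondrial ribosome thus had 35 of 73 higher where its cytosolic counterpart had 4 of 41, a contrast that could not be tested with 1 array per group. COX1 and COX2, transcripts of the mitochondrial genome that this ribosome translates, were among the brightest on the arrays. COX1 read 14.44, 14.46 and 14.36 in sham, TBI and hand acupuncture and COX2 14.42, 14.52 and 14.37, each lowest on the hand acupuncture array.

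**Figure D5:**
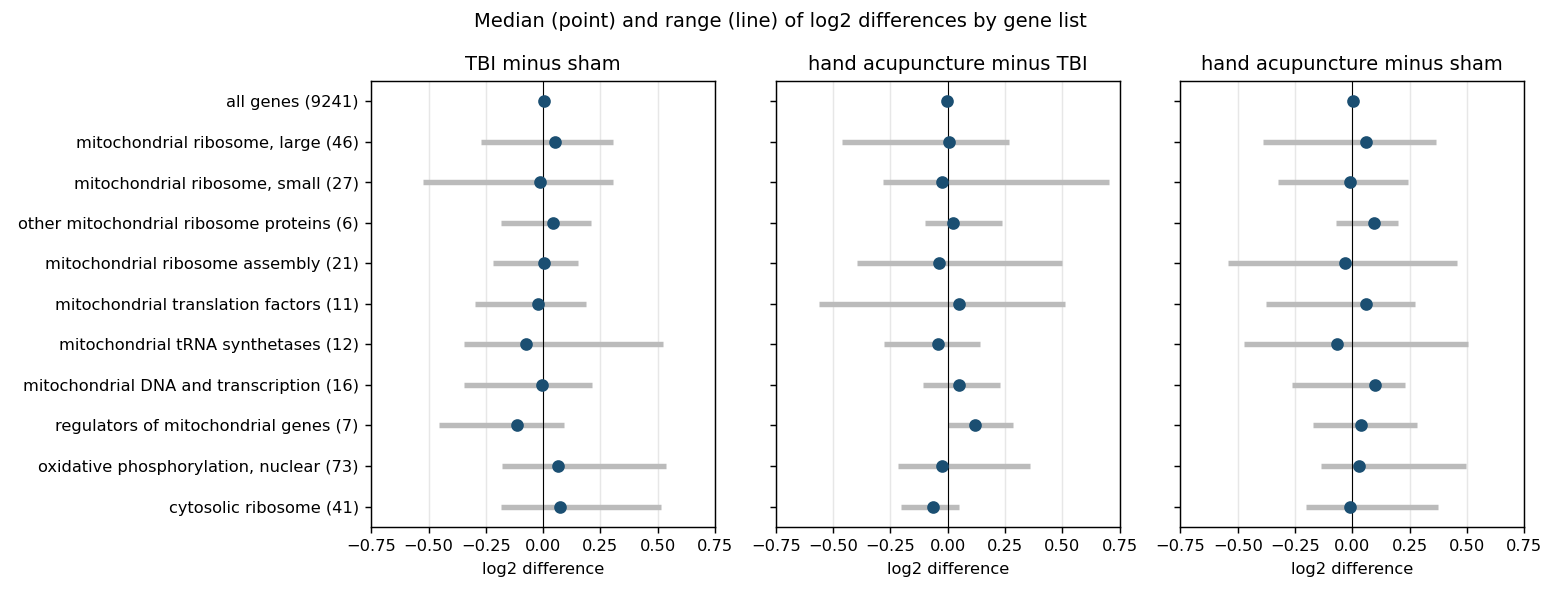
Median (point) and range from the lowest to the highest gene (grey line) of the log2 differences of each list above the floor, with the number of genes in brackets, 1 panel per comparison; all genes are given by their median alone. Every median lies within 0.12 of zero.

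Promoters of these genes were looked at because the same factors are known to act on many nuclear genes of mitochondria. NRF1 is an activator of such genes, GABPA belongs to the ETS family, and YY1 binds near transcription starts. RefSeq windows from 250 bases before to 50 after the start (assembly GRCr8) matched 59 of the 73 genes. The letters CCGGAAG, an ETS core, occurred on either strand in 20 of 59 (33.9%), against 11.6% of 19005 protein-coding genes and 19.0% of 7675 such genes above the floor. AAGATGGC, a YY1 core, occurred in 14 (23.7%, against 4.08% and 6.12%), and GCGCATGC, an NRF1 core, in 5 (8.47%, against 3.32% and 5.56%). At least 1 of the 3 was in 32 genes (54.2% of the 59, against 17.3% of all protein-coding genes). That share is not given over genes above the floor, where each motif alone was more frequent than over all protein-coding genes. In 6 genes (Mrpl32, Mrpl36, Mrpl48, Mrps18a, Mrps18b and Mrps27) 2 or more of the 3 occurred, a count without a share over all genes here. No occurrence of 1 motif overlapped an occurrence of a different motif. For TBI minus sham, members with and without the letters had medians of 0.045 and 0.032 for NRF1, 0.031 and 0.041 for ETS, and 0.0016 and 0.037 for YY1. For hand acupuncture minus TBI the medians were -0.0055 and 0.0084, 0.0020 and 0.0058, and 0.010 and -0.0027. For hand acupuncture minus sham they were 0.032 and 0.042, 0.051 and 0.032, and 0.042 and 0.041. So for no motif did members with the letters have the higher median in all 3 comparisons, or the lower in all 3. A match is a run of letters and not a shown binding site.

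The 3 windows below are those of the brightest member, of a pair of members that share a start region, and of the member with the largest difference; the last of these, and the pair, were chosen after their values were seen. Motif letters are in capitals, each window is printed 5' to 3' on the strand of its gene, and the coordinates are those of GRCr8. Mrpl17 lies on the minus strand at chr1:169575650-169575949, and its capitalised NRF1 letters begin 53 and 17 bases before the start. The bases gc just before the first capitals complete a further NRF1 match that overlaps them and is not in capitals. Mrpl46, on the minus strand at chr1:142116981-142117280, has the YY1 letters from base 25 of the transcript. Mrps9, on the plus strand at chr9:52605428-52605727, has none of the 3 motifs in this window.
Mrpl17: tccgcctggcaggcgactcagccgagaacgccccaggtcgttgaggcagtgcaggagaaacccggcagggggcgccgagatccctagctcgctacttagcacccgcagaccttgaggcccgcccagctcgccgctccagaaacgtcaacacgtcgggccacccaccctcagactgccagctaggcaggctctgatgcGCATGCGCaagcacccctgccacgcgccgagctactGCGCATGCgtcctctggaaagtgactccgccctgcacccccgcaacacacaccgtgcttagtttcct
Mrpl46: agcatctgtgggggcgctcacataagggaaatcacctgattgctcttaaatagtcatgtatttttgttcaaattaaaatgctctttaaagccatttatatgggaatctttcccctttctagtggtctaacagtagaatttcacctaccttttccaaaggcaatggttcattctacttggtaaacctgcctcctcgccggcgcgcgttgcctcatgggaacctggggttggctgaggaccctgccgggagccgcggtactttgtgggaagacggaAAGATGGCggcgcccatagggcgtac
Mrps9: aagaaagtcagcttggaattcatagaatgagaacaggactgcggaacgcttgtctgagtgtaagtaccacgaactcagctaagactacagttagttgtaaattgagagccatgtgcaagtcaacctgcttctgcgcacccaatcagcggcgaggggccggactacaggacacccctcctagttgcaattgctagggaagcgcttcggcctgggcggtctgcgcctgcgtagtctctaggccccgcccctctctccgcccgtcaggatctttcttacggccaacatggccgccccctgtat

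Many members start close to another gene that runs the opposite way. Of the 59 matched genes, 17 (28.8%) had a protein-coding start within 1000 bases on the other strand, pointing away, against 7.22% of 19005 protein-coding genes and 11.5% of those above the floor. Mrpl46 of the central protuberance and Mrps11 of the small subunit form such a pair, with starts 234 bases apart, so the window of Mrpl46 above also holds the start of Mrps11. Mrpl46 read 9.43, 9.54 and 9.49 in sham, TBI and hand acupuncture, and Mrps11 9.23, 9.14 and 8.90. Their differences had opposite signs for TBI minus sham (0.11 and -0.084), and for hand acupuncture minus TBI they were -0.050 and -0.24. Mrpl47, a large subunit protein at the exit tunnel, starts 244 bases from Ndufb5, a subunit of respiratory complex I, and both differed little (0.088 and 0.064 for TBI minus sham). Mrpl32 starts 210 bases from the proteasome gene Psma2 (0.065 and 0.14), Mrpl18 425 bases from the chaperonin gene Tcp1 (0.12 and 0.023) and Mrps27 91 bases from Ptcd2, another gene of mitochondrial RNA (-0.072 and 0.083). Other pairs differed more from each other in the same comparison: Mrpl30 and Mitd1 (0.038 and -0.42), Mrpl2 and Klc4 (0.052 and 0.31), and Mrpl40 and Hira (-0.15 and 0.11).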

How the data were processed

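The deposited values are log2 signals of 31099 probe sets. MAS5 is named in the submitters' processing notes, without a version. The log base and scaling were read from the values: the trimmed mean signal (2% off each end) came to 500.0 on every array. Detection calls were not used here. Names came from the 2016 platform annotation, for probe sets with exactly 1 symbol. Each gene took the values of its brightest probe set by mean over the 3 arrays, and the floor was the median mean log2 signal of non-control probe sets, 7.44. Differences are between 2 arrays on the log2 scale, as deposited, and a gene was counted as apart at 1.5-fold. Lists were described by counts and medians beside all genes above the floor.

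The members, the lists and the alternatives were chosen with earlier results of these data known. Genes were named by a rule: the 6 brightest and 6 dimmest members, the 8 highest and 8 lowest wherever TBI was compared (5 and 5 where hand acupuncture was compared with sham), members with several probe sets above the floor, and up to 3 genes of each other list. Members of structural regions, neighbours and the most even genes were named after their values were seen. All 73 members were found by identifier in RefSeq (GRCr8). MAS5 subtracts mismatch signal, which makes low signals erratic. As alternatives, arrays were quantile normalized or centred on their medians, the floor was raised to 9.25 or dropped, 50 was added before the log, all probe sets of a gene were averaged or kept apart, and the threshold was set to 2-fold. The tools were numpy 2.4.6, pandas 2.3.3 and matplotlib 3.10.9 under Python 3.11.15, and the scripts were tested on simulated data.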

Additional observations from a re-analysis of the deposited data

How the results depend on the processing

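Over the alternatives run, the median log2 difference of the 73 genes lay between 0.036 and 0.043 for TBI minus sham, between -0.0065 and 0.0045 for hand acupuncture minus TBI, and between 0.032 and 0.049 for hand acupuncture minus sham. The large subunit median lay between 0.046 and 0.061, between 0.0061 and 0.012, and between 0.058 and 0.065 in the same order. The small subunit median lay between -0.012 and 0.0068, between -0.040 and -0.017, and between -0.016 and -0.0044. So the sign of the whole list's median for hand acupuncture minus TBI and of the small subunit's for TBI minus sham depended on the setting. With every probe set as its own unit, 1 of 85 was 1.5-fold apart for TBI minus sham, a further probe set of Mrpl52, where by genes there was 0. For hand acupuncture minus TBI the count of 1 became 0 with the mean of all probe sets, 0 at 2-fold and 0 without Mrps9. The outcomes at 2-fold and without Mrps9 were fixed in advance, since Mrps9 was the only gene counted and stood at 1.63-fold. The large and small subunit settings, leaving out Mrps9, and moving Mrps18a and Mrps30 were added after seeing the data. Over 38 named genes, 654 values were recomputed and 10 moved by more than 0.1, all with the mean of all probe sets. Many of these values could hardly move. A changed floor leaves a gene's own difference as it is, centring shifts all genes alike, and averaging leaves genes with 1 probe set unchanged. The count of 10 is therefore no measure of robustness. For Mrpl52 the mean of all probe sets turned TBI minus sham from 0.25 to -0.35. Leaving out members with a pseudogene or copy suffix was not run, since no member had one. No paired analysis was possible because each group is 1 array. The floor is a median of signal and no measure of background, so the members' signal over background was not assessed here.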

Other observations

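Of 10 measured regulators of nuclear genes for mitochondria, 7 lay above the floor. Their median log2 difference was -0.11 for TBI minus sham, with 5 of 7 lower, and 0.12 for hand acupuncture minus TBI, with all 7 higher. Over all genes above the floor, 51.0% and 49.3% were higher in these comparisons. Ppargc1a was higher by only 0.0028 for hand acupuncture minus TBI. The list is short, and its counts were not tested. Pprc1, a coactivator related to PGC-1alpha, read 8.18 in sham, 7.73 in TBI and 8.01 in hand acupuncture. Tfam, which packages mitochondrial DNA and starts its transcription, read 9.66, 9.53 and 9.76. Gabpa, the DNA-binding part of the ETS factor named above, read 9.55, 9.44 and 9.56, and Yy1 10.83, 10.81 and 10.88, while Nrf1 lay below the floor. The TBI array was the lowest of the 3 for Pprc1, Tfam, Gabpa, Yy1 and Esrra (8.40, 8.12 and 8.23), while sham was lowest for Ppargc1a (10.10, 10.14 and 10.14) and Gabpb1 (8.99, 9.09 and 9.28). Both comparisons share the TBI array.

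Of 17 genes of mitochondrial DNA upkeep and transcription, 16 lay above the floor. Tfam is among them, so this list and that of the regulators are not separate sets. The median was -0.0072 for TBI minus sham, with 8 of 16 higher, against 51.0% of all genes above the floor. It was 0.051 for hand acupuncture minus TBI, with 13 of 16 higher, against 49.3%. These counts were not tested. Trmt10c, a subunit of the enzyme that cuts the 5' ends of mitochondrial tRNAs, differed by -0.35 for TBI minus sham, and Polg2, the accessory subunit of the mitochondrial DNA polymerase, was 0.21 higher.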
